A study of Mus musculus with 12 samples.

Results

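The genes described here were 10 transporters of neutral amino acids and of amino acids that are exchanged with them, chosen by gene name from the 20614 genes measured in midbrain astrocytes of mice with and without Cd38. They were the system A carriers Slc38a1 and Slc38a2, the system N carriers Slc38a3 and Slc38a5, the proton-coupled carrier Slc36a2, the light chains Slc7a5, Slc7a10 and Slc7a11 with their common heavy chain Slc3a2, and the glycine transporter Slc6a9. Slc38a5 and Slc36a2 were chosen because Slc38a5 was lower and Slc36a2 higher in the mutant genotypes than in Cd38+/+. Their levels against Cd38+/+ are therefore given as a description without a test, and the other 8 were set beside them as relatives.

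CD38 is an enzyme that consumes NAD+, and the study asked how its loss alters the transcripts of astrocytes. Astrocytes came from male mice on a C57BL/6J background at 12 to 14 months of age, and gave 3 Cd38+/+, 3 Cd38+/- and 6 Cd38-/- libraries. The mutant allele (Cd38tm1Lnd, from B6.129P2 stock) disrupts the gene in the whole animal, so that the loss was neither restricted to astrocytes nor to adult life. Cells from dissected striatum, thalamus and substantia nigra were first depleted of endothelial cells, myelin and CD11b-positive microglia with magnetic beads and then captured with ACSA-2 beads, and expression was deposited as TPM (a transcript level per length, scaled so that each library sums to 1000000).

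Astrocytes take up glutamate released at synapses, convert it to glutamine, and hand glutamine to neurons through system N carriers, which exchange it for protons. System A carriers accumulate small neutral amino acids with sodium and are known best from neurons and from cells deprived of amino acids. The SLC7 light chains reach the cell surface bound to the heavy chain Slc3a2 and exchange one amino acid for another. Slc7a5 carries large neutral amino acids and is prominent at the blood-brain barrier, Slc7a10 carries small ones including serine and glycine, and Slc7a11 exchanges cystine for glutamate, which links it to glutathione synthesis.

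Cd38 itself was measured at 104.88 to 148.64 TPM in Cd38+/+, 90.36 to 90.80 TPM in Cd38+/- and 8.54 to 21.86 TPM in Cd38-/- libraries. All 14 astrocyte markers were above 0 in every library. Between 13160 and 13516 genes were above 0 in Cd38+/+ libraries, against 16160 to 16327 in Cd38+/- and 15920 to 17906 in Cd38-/- libraries, so the Cd38+/+ libraries stood apart in detection before any transporter was compared. In Cd38-/- against Cd38+/+, the marker lists held 2 called genes of 14 for astrocytes, 1 of 14 for mural cells and fibroblasts, 1 of 7 for microglia, 1 of 8 for neurons and 3 of 6 for choroid plexus, all higher, while none was called among 19 endothelial, 9 oligodendrocyte, 8 ependymal and 5 erythroid genes. None was called from any of these lists in the other comparisons. Genes were tested when their mean exceeded 5 TPM in at least 1 compared genotype. A marker near 0 in Cd38+/+, such as Ttr for choroid plexus (0 in 2 Cd38+/+ libraries), could enter through the mutants alone. The calls of markers are therefore a description only. Of all tested genes, 8.28% were called in Cd38-/- against Cd38+/+, 0% in Cd38+/- against Cd38+/+ and 0.0346% in Cd38-/- against Cd38+/-. The markers listed at 0 in all 3 Cd38+/+ libraries were Cx3cr1, Tmem119, Siglech and Fcrls for microglia, Mog for oligodendrocytes, Th and Slc6a3 for neurons and Kl for choroid plexus. The averages of Csf1r and Trem2 for microglia and of Mal and Sox10 for oligodendrocytes were instead higher in Cd38+/+ than in either mutant genotype, with Mal at 36.2 TPM against 22.8 TPM in Cd38+/- and 22.6 TPM in Cd38-/-. Csf1r and Trem2 were each listed at 0 in 1 Cd38+/+ library. On the scale of log2(TPM + 1), all 7 tested microglia markers were higher in each mutant genotype (median 0.50 in Cd38-/- and 0.55 in Cd38+/-). Of tested oligodendrocyte markers, 5 were higher and 4 lower in Cd38-/-, and 7 and 3 in Cd38+/-.

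The transporters spanned a wide range of levels. In Cd38+/+ libraries Slc7a10 led with 1033 ± 190 TPM (SD, n = 3), followed by Slc3a2 with 919 ± 120.0 TPM (n = 3), and the libraries of these neighbours overlapped. Slc6a9 came next with 457 ± 67.6 TPM (n = 3) and then Slc38a3 with 342 ± 34.8 TPM (n = 3). The same 4 genes led in the same order in both mutant genotypes, with overlap in Cd38-/- between Slc7a10 and Slc3a2 and between Slc6a9 and Slc38a3.

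Slc38a1, Slc7a5 and Slc7a11 followed in that order in every genotype, and in Cd38+/+ the libraries of Slc38a1 and Slc7a5 overlapped. The only change of rank lay below them. Slc38a5 stood above Slc38a2 in Cd38+/+ (34.7 ± 16.2 against 25.7 ± 4.31 TPM, n = 3, with overlapping libraries) and below it in Cd38+/- (11.5 ± 1.76 against 38.1 ± 20.1 TPM, n = 3) and Cd38-/- (13.2 ± 5.74 against 40.3 ± 15.9 TPM, n = 6), where the libraries of these 2 genes did not overlap. Slc36a2 was lowest in each genotype, and in both mutant genotypes its libraries overlapped those of Slc38a5. The summed level of the 10 genes was 2876 to 3354 TPM in Cd38+/+, 3428 to 3813 TPM in Cd38+/- and 2623 to 3419 TPM in Cd38-/- libraries.

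**Figure D1:**
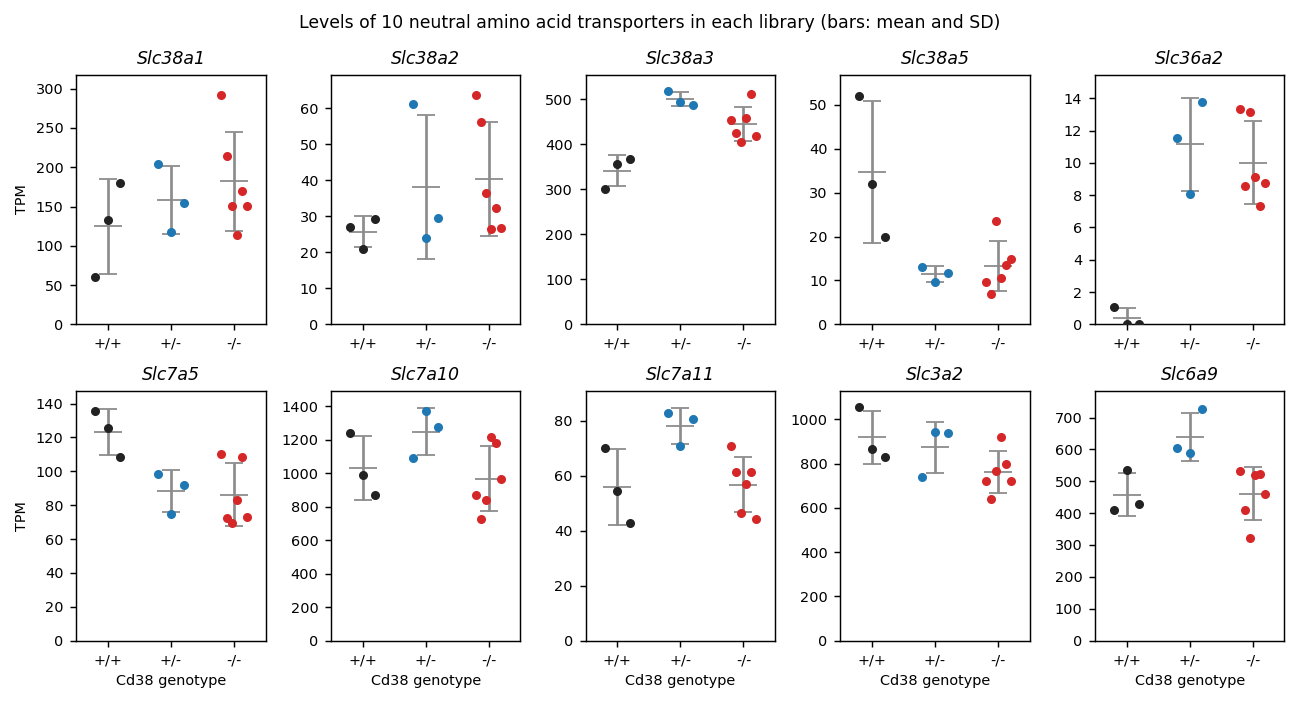
TPM of each of the 10 transporters (vertical axes, each starting at 0) in every library of the 3 Cd38 genotypes (horizontal axes), 1 point per library in replicate order, with the mean and SD in gray. Slc36a2 sat at 0 to 1.10 TPM in Cd38+/+ and at 7.30 to 13.80 TPM in the mutant libraries, and Slc38a3 lay higher in every mutant library than in any Cd38+/+ library.

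The system N pair was described first, because one of its genes was lower in the mutants. Slc38a5 (chrX:8271133-8280179, mm10), a carrier of glutamine, serine and glycine, was at 51.98, 32.09 and 19.94 TPM in the Cd38+/+ libraries. It was at 13.08, 9.59 and 11.76 TPM in the Cd38+/- libraries and at 7.02 TPM (lowest), 12.15 TPM (median) and 23.45 TPM (highest) in the Cd38-/- libraries. All 3 Cd38+/+ libraries were above all 3 Cd38+/- libraries, whereas Cd38-/- replicate 3 lay above Cd38+/+ replicate 3, so that Cd38-/- and Cd38+/+ overlapped through this 1 library.

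On the scale of log2(TPM + 1), on which all differences below were computed, Slc38a5 differed from Cd38+/+ by -1.42 in Cd38+/- and by -1.31 in Cd38-/-. Leaving out Cd38+/+ replicate 1 brought these differences to -1.09 and -0.98, and leaving out Cd38+/+ replicate 3 brought them to -1.76 and -1.65. Without Cd38-/- replicate 3 the Cd38-/- difference was -1.49.

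Slc38a5 is also known from endothelial cells of the brain, which the bead depletion was meant to take out, and 20 endothelial markers were therefore read beside it. Their summed level was 4513, 2671 and 1559 TPM in Cd38+/+ replicates 1 to 3, which ranked these libraries as Slc38a5 did. Cd38-/- replicate 3, highest in Slc38a5 among the mutant libraries, was also highest among them in the endothelial sum, at 3288 TPM. Taken one by one, all 20 endothelial markers overlapped between the Cd38+/+ and the 9 mutant libraries, and Erg was listed at 0 in 1 Cd38+/+ library.

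As a share of the endothelial sum, Slc38a5 was 1.15% to 1.28% in Cd38+/+, 0.549% to 0.680% in Cd38+/- and 0.387% to 0.761% in Cd38-/- libraries, and the mutants did not overlap Cd38+/+. As a share of Cldn5, a tight junction gene of endothelium, it was 10.6% to 13.7%, 9.40% to 11.4% and 6.61% to 11.8%, and these ranges overlapped. Over the 20 markers taken singly, Slc38a5 per marker was higher in all Cd38+/+ libraries for 7 markers and overlapped for 13. The 7 were Tek, Pecam1, Ocln, Slc2a1, Flt1, Slco1c1 and Kdr. The sum is weighted by its most abundant genes, which did not range alike. Slc2a1 was at 558.09 to 666.17 TPM in Cd38+/+ and 526.98 to 947.69 TPM in mutant libraries, and Ly6c1 at 199.95 to 1044.61 and 158.58 to 663.16 TPM. The share of the sum thus depended on the markers listed. The part of endothelial RNA in the lower Slc38a5 was not tested further, and in bulk libraries fewer cells of a type and less RNA per cell cannot be told apart. Erythroid markers also ranged higher in Cd38+/+ (7770 to 34711 TPM) than in Cd38+/- (3228 to 6453 TPM) and Cd38-/- libraries (3805 to 15378 TPM), and their part was not tested.

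**Figure D2:**
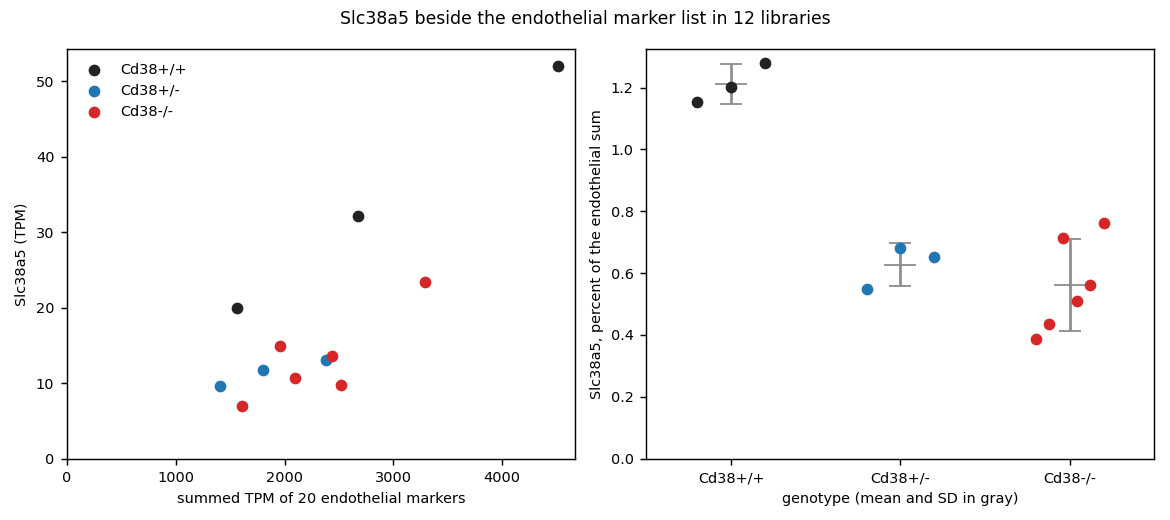
Left, TPM of Slc38a5 (vertical axis) against the summed TPM of 20 endothelial markers (horizontal axis) in 12 libraries, coloured by genotype; right, Slc38a5 as a percent of that sum by genotype, with the mean and SD in gray. The 3 Cd38+/+ libraries spread from 1559 to 4513 TPM in the sum and lay at 1.15% to 1.28%, above the highest mutant library at 0.761%.

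Slc38a3 (chr9:107650634-107669530), the system N carrier known for glutamine release by astrocytes, went the other way. It was at 301.79, 356.62 and 366.45 TPM in Cd38+/+ and at 517.91, 494.04 and 488.31 TPM in Cd38+/- libraries. In Cd38-/- libraries it ranged from 405.33 to 511.20 TPM with a median of 439.8 TPM. Every mutant library lay above every Cd38+/+ library.

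Slc38a3 rose in Cd38-/- against Cd38+/+ by 0.38 (SE 0.11, 95% interval 0.14 to 0.63, limma q = 0.0447), a 1.30-fold change, and was the only one of the 8 relatives called in this comparison, where 8.28% of all tested genes were called, 6.42% higher and 1.86% lower. A gene was called when its q, an adjusted p over all genes tested, was under 0.05 and its change at least 1.2-fold. The call rested near the threshold. It held without Cd38+/+ replicate 2 or 3 and was lost without Cd38+/+ replicate 1 (0.30, q = 0.0719) or without any 1 of the 6 Cd38-/- libraries (0.34 to 0.41, q = 0.0508 to 0.0967). It was also lost with median-ratio scaling (0.27, q = 0.113), with library quality weights (0.40, q = 0.423) and with the replicate block (0.33, q = 0.397). Removing length and GC trends lost it too (0.17, q = 0.204), as did adding the block to that fit (0.092, q = 0.639). With Benjamini-Hochberg adjustment, or with eBayes without the trend, the call was lost as well.

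In Cd38+/- the difference of Slc38a3 was 0.55 (SE 0.14, interval 0.24 to 0.86, q = 0.176), which did not pass. Cd38-/- differed from Cd38+/- by -0.17 (interval -0.37 to 0.03, q = 0.370). Because one gene of the pair was higher and the other lower, the ratio of Slc38a3 to Slc38a5 was 5.81, 11.1 and 18.4 in Cd38+/+ libraries, 39.6, 51.5 and 41.5 in Cd38+/- libraries, and 17.3 (lowest), 40.2 (median) and 60.7 (highest) in Cd38-/- libraries. Only Cd38-/- replicate 3 fell inside the Cd38+/+ range.

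The system A genes Slc38a1 and Slc38a2 lie 44478 bases apart on chromosome 15 (chr15:96571418-96642913 and chr15:96687392-96699730). Slc38a1 was at 60.91, 133.41 and 180.41 TPM in Cd38+/+, at 204.38, 118.07 and 154.01 TPM in Cd38+/-, and at 114.04 (lowest), 160.5 (median) and 291.35 TPM (highest) in Cd38-/- libraries. The genotypes overlapped, and the 3 Cd38+/+ libraries were spread more widely than the 3 Cd38+/- libraries.

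Its difference was 0.61 in Cd38-/- (SE 0.33, interval -0.11 to 1.32, q = 0.161) and 0.44 in Cd38+/- (interval -0.41 to 1.30, q = 0.383). Without Cd38+/+ replicate 3 the Cd38-/- difference was 0.94 (q = 0.0392) and passed, and without Cd38+/+ replicate 1 it was 0.16 (q = 0.383). The value of Slc38a1 thus turned on which Cd38+/+ library was kept.

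Slc38a2, whose transcript is known to rise when amino acids are scarce, was at 27.09, 20.92 and 29.23 TPM in Cd38+/+ and at 61.06, 23.86 and 29.46 TPM in Cd38+/- libraries. In Cd38-/- it ranged from 26.43 to 63.75 TPM with a median of 34.4 TPM. A few mutant libraries were high (Cd38+/- replicate 1 and Cd38-/- replicates 1 and 2), and the rest lay near the Cd38+/+ level. The differences were 0.56 in Cd38-/- (interval -0.08 to 1.19, q = 0.151) and 0.45 in Cd38+/- (interval -0.40 to 1.29, q = 0.379), and neither passed.

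The 4 SLC38 genes together summed to 442 to 596 TPM in Cd38+/+, 646 to 796 TPM in Cd38+/- and 609 to 818 TPM in Cd38-/- libraries. Slc38a5 made up 3.35% to 11.8% of this sum in Cd38+/+, 1.49% to 1.72% in Cd38+/- and 0.997% to 3.81% in Cd38-/- libraries. Slc38a4, the next SLC38 gene on chromosome 15, reached at most 0.32 TPM.

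Slc36a2 (chr11:55158470-55185077) moves glycine, alanine and proline together with protons. It was at 1.10, 0 and 0.03 TPM in the Cd38+/+ libraries and at 11.55, 8.09 and 13.80 TPM in the Cd38+/- libraries. In Cd38-/- libraries it ranged from 7.30 to 13.32 TPM with a median of 8.92 TPM. No mutant library came near a Cd38+/+ library, and the level itself was low in all of them.

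The difference from Cd38+/+ was 3.20 in Cd38+/- and 3.06 in Cd38-/-, and since the Cd38+/+ values were near 0 it followed the pseudocount, from 1.47 with 5 to 5.30 with 0.1 in Cd38-/-. Slc36a2 met the filter on low values, a mean above 5 TPM in at least 1 compared genotype, through the mutants alone. Of 3760 genes with a mutant mean of 5 to 20 TPM, 417 (11.1%) had 1 or more Cd38+/+ libraries at 0. Fewer of them, 22 (0.585%) with Slc36a2 included, were at or below 1.10 TPM in all Cd38+/+ libraries. This is a description only, since Slc36a2 was chosen for its difference from Cd38+/+. The fewer genes above 0 in Cd38+/+ libraries ran along with the low Slc36a2 values there, and their part was not tested.

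The neighbours of Slc36a2 on chromosome 11 were below the filter on low values in every genotype, too low to show whether its pattern was shared. Slc36a3, 6761 bases away, was listed at 0 in 11 of 12 libraries and reached 0.07 TPM in the other. Slc36a1, 19272 bases away, was at 1.64, 3.88 and 0.01 TPM in Cd38+/+ libraries and between 0.47 and 1.91 TPM in the mutant libraries. Slc36a4, which lies elsewhere, was at 4.97 to 11.29 TPM in Cd38+/+ and 7.96 to 15.46 TPM in mutant libraries. These genes were named for their family and not for their values. On the wider list of transporters described below, Slc16a10, Slc6a20b and Slc6a5 were also higher in every mutant library than in any Cd38+/+ library. They reached at most 1.71 TPM and were below the filter in every genotype.

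The mutant genotypes did not differ detectably from each other in Slc38a5 or Slc36a2. The choice of genes had not used this comparison, so both were tested in it. Cd38-/- differed from Cd38+/- by 0.11 in Slc38a5 (interval -0.53 to 0.75, q = 0.666) and by -0.14 in Slc36a2 (interval -0.63 to 0.35, q = 0.618).

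Across the 9 mutant libraries and 11563 genes, Slc38a5 varied most like Fas (Pearson r = 0.944), Mrnip (r = 0.938) and Tnfsfm13 (r = 0.905). Slc36a2 varied most like the immediate early gene Fos (r = 0.872), the small heat shock protein gene Hspb8 (r = 0.869) and Pigv (r = 0.842). These are the highest of many values over libraries that share 2 genotypes and a fixed sum, and they are a description only.

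Among the light chains, Slc7a5 (chr8:121881150-121907694), the large neutral amino acid carrier, was at 135.86, 125.69 and 108.76 TPM in Cd38+/+ and at 98.50, 74.50 and 91.64 TPM in Cd38+/- libraries. In Cd38-/- libraries it was at 69.44 (lowest), 78.1 (median) and 110.09 TPM (highest). The Cd38+/- libraries lay below all Cd38+/+ libraries, and Cd38-/- replicate 1 lay above the lowest Cd38+/+ library.

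The difference was -0.53 in Cd38-/- (SE 0.18, interval -0.92 to -0.14, q = 0.0616) and -0.48 in Cd38+/- (SE 0.19, interval -0.91 to -0.06, q = 0.213). Neither was called. In Cd38-/- it passed without Cd38+/+ replicate 3 (-0.62, q = 0.0270), with median-ratio scaling (-0.65, q = 0.0309), with quantile normalization (-0.55, q = 0.0456), with length and GC trends removed (-0.75, q = 0.0137) and in 1 fit of all 12 libraries (-0.53, q = 0.0368). With those trends removed and the replicate block added it was -0.81 (q = 0.310). Slc7a5 lies within the span of Gm20388, a gene annotated on the opposite strand, and whether their exons overlap was not examined.

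Slc7a10 (chr7:35186385-35201114), an astrocyte carrier of serine and glycine and the highest of the 10 genes, was at 1240.53, 991.03 and 867.56 TPM in Cd38+/+. It was at 1094.28, 1372.81 and 1277.50 TPM in Cd38+/- and at 726.92 (lowest), 919 (median) and 1218.41 TPM (highest) in Cd38-/- libraries. All 3 genotypes overlapped. Its difference was -0.10 in Cd38-/- (interval -0.49 to 0.28, q = 0.427) and 0.28 in Cd38+/- (interval -0.10 to 0.66, q = 0.298), while Cd38-/- was 0.38 below Cd38+/- (difference -0.38, interval -0.74 to -0.03, q = 0.303).

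Slc7a11 (chr3:49892526-50443614), the cystine and glutamate exchanger, was at 70.23, 54.60 and 42.83 TPM in Cd38+/+ and at 82.73, 70.74 and 80.76 TPM in Cd38+/- libraries. In Cd38-/- libraries it ranged from 44.09 to 70.73 TPM with a median of 59.2 TPM. The Cd38+/- libraries were above all others, although the highest Cd38-/- library came almost level with the lowest of them. Its difference from Cd38+/+ was 0.50 in Cd38+/- (interval -0.02 to 1.02, q = 0.239) and 0.03 in Cd38-/- (interval -0.40 to 0.46, q = 0.533).

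Slc3a2 (chr19:8706882-8723369), the heavy chain, was at 1055.52, 868.11 and 831.99 TPM in Cd38+/+, 739.64, 941.20 and 939.07 TPM in Cd38+/-, and 640.20 (lowest), 744 (median) and 921.04 TPM (highest) in Cd38-/- libraries. The genotypes overlapped. The difference was -0.27 in Cd38-/- (interval -0.55 to 0.01, q = 0.130) and -0.07 in Cd38+/- (interval -0.43 to 0.28, q = 0.534). With length and GC trends removed the Cd38-/- difference was called (-0.49, q = 0.0385), and with the replicate block added to that fit it was -0.60 (q = 0.326) and not called.

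Set against its partners, Slc3a2 was 0.721 to 0.786 times the sum of 6 light chains (Slc7a5, Slc7a6, Slc7a7, Slc7a8, Slc7a10 and Slc7a11) in Cd38+/+ libraries, 0.567 to 0.640 times in Cd38+/- and 0.580 to 0.783 times in Cd38-/- libraries. The Cd38+/- libraries lay below the Cd38+/+ libraries, and the Cd38-/- libraries overlapped both. Slc7a10 made up 81.1% to 89.7% of the light chain sum over the 12 libraries, so this ratio was mostly one between Slc3a2 and Slc7a10.

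Slc6a9 (chr4:117834506-117875198), the astrocytic transporter that clears glycine, was at 408.54, 534.42 and 428.81 TPM in Cd38+/+ and at 605.12, 589.12 and 726.81 TPM in Cd38+/- libraries. In Cd38-/- libraries it was at 322.22 (lowest), 491 (median) and 532.18 TPM (highest). The Cd38+/- libraries were above all libraries of both other genotypes. The difference from Cd38+/+ was 0.49 in Cd38+/- (SE 0.16, interval 0.13 to 0.85, q = 0.191) and 0.00 in Cd38-/- (interval -0.36 to 0.37, q = 0.563). Slc6a9 overlaps Ccdc24 and B4galt2 on the opposite strand, and the end of Slc7a10 overlaps Lrp3.

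**Figure D3:**
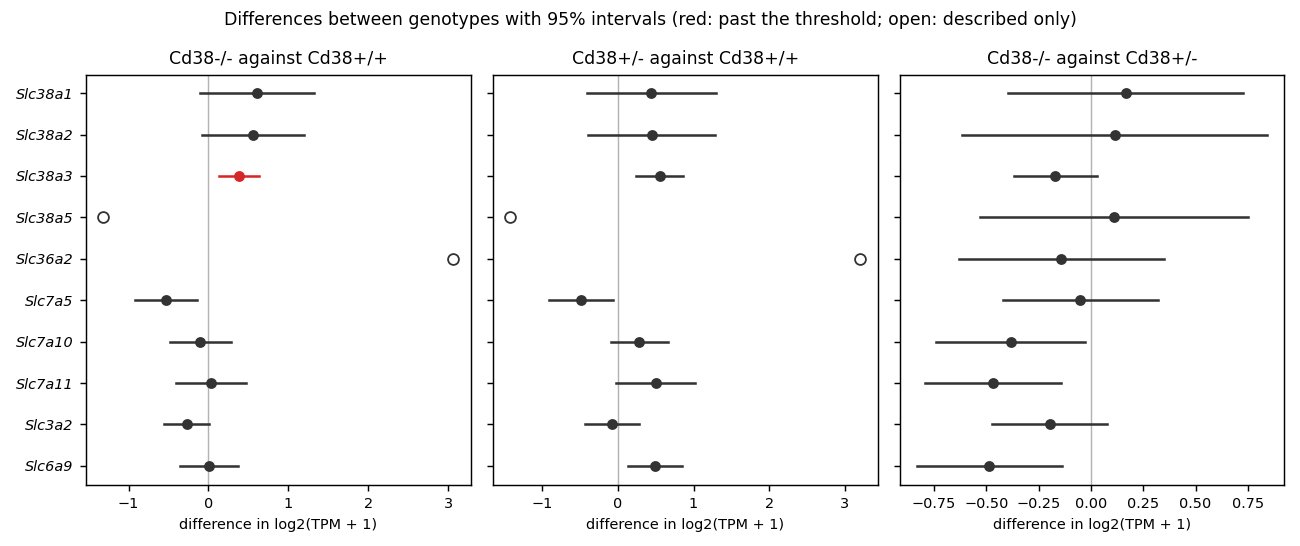
Difference in log2(TPM + 1) (horizontal axes, scaled separately per panel) of each transporter in the 3 genotype comparisons, with 95% intervals, red where past the threshold and open where described only. Slc38a3 at 0.38 in Cd38-/- against Cd38+/+ was the only tested gene called, and in Cd38-/- against Cd38+/- the intervals of Slc7a10, Slc7a11 and Slc6a9 lay below 0.

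In Cd38+/- against Cd38+/+, 0 of the 8 relatives were called by limma and 3 had an unadjusted p under 0.05 (Slc38a3, Slc6a9 and Slc7a5). Of all 11763 genes tested, 0% were called and 13.5% had such a p. The Cd38+/- and Cd38+/+ libraries did not overlap for 4 of the 8 (Slc38a3, Slc7a11 and Slc6a9 higher and Slc7a5 lower), against 22.5% of all genes tested (15.5% higher and 6.94% lower). The median difference of the 8 was 0.44, that of all genes 0.18.

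The astrocyte markers moved in the same comparison. Their summed level was 14355 to 20558 TPM in Cd38+/+, 21144 to 23655 TPM in Cd38+/- and 15804 to 20798 TPM in Cd38-/- libraries, with a median difference of 0.47 in Cd38+/- over 14 markers. As a share of the astrocyte sum, Slc38a3 was 1.47% to 2.55% in Cd38+/+ and 2.08% to 2.45% in Cd38+/- libraries, and Slc6a9 was 1.99% to 2.99% and 2.49% to 3.10%. Slc7a11 was 0.295% to 0.342% and 0.299% to 0.391% of this sum. All 3 overlapped on this scale, as did Slc38a3 between Cd38+/+ and Cd38-/- (2.27% to 2.69%). Slc7a5 was 0.661% to 0.758% of the astrocyte sum in Cd38+/+, 0.391% ± 0.0755 (SD, n = 3) in Cd38+/- and 0.408% to 0.593% in Cd38-/- libraries. On this scale its mutant libraries stayed below Cd38+/+. The endothelial sum, like the astrocyte sum, ranked the Cd38+/+ libraries as Slc7a5 did (4513, 2671 and 1559 TPM). Among the mutant libraries, Cd38-/- replicate 3 was highest in the endothelial sum (3288 TPM) and lowest in Slc7a5 (69.44 TPM). The part of endothelial RNA in the Slc7a5 values was not tested.

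In Cd38-/- against Cd38+/-, 0 of 10 transporters were called by limma and 3 had an unadjusted p under 0.05, where 0.0346% of all 11563 genes were called (0.0173% higher and 0.0173% lower) and 11.2% had such a p. The libraries did not overlap for Slc7a11 and Slc6a9, both lower in Cd38-/-, against 5.73% of all genes (2.85% higher and 2.88% lower). Slc7a11 differed by -0.47 (SE 0.15, interval -0.79 to -0.14, q = 0.223) and Slc6a9 by -0.49 (SE 0.16, interval -0.83 to -0.14, q = 0.227). The median difference of the 10 was -0.16, that of all genes -0.02 and that of the astrocyte markers -0.33, of which 13 of 14 were negative and none was called. Slc38a1, Slc38a2, Slc7a5 and Slc3a2 differed by 0.17 (interval -0.40 to 0.73), 0.11 (-0.62 to 0.84), -0.05 (-0.42 to 0.32) and -0.20 (-0.47 to 0.08), and all 4 overlapped.

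In Cd38-/- against Cd38+/+ the libraries did not overlap for 1 of the 8 relatives, against 11.8% of all genes (8.21% higher and 3.62% lower), and 2 of the 8 had an unadjusted p under 0.05, against 23.6%. Their median difference was 0.02, that of all genes 0.15. The shares of the 8 were thus near those of all genes. With median-ratio scaling the median of all genes fell to 0.04, and Slc38a3 then differed by 0.27, against 0.38 before.

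A wider list held 39 other amino acid transporters, of which 20 were tested in Cd38-/- against Cd38+/+, 2 were called higher and none lower. Of these 2, Slc6a15 met the filter on low values through Cd38-/- alone, and its call is a description only. Of all genes tested in this comparison, 8.28% were called, 6.42% higher and 1.86% lower. Slc6a15, a carrier of branched-chain amino acids and proline, was at 0, 0.02 and 2.80 TPM in Cd38+/+, at 7.43, 2.02 and 4.89 TPM in Cd38+/- and at 1.93 to 8.01 TPM in Cd38-/- libraries. Slc6a19, a broad neutral amino acid carrier known from gut and kidney, was at 2.51, 3.82 and 9.15 TPM, at 15.84, 7.05 and 10.55 TPM and at 6.86 to 20.19 TPM. Both overlapped between Cd38-/- and Cd38+/+, through Cd38-/- replicate 4 and Cd38+/+ replicate 3.

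The difference was 2.03 for Slc6a15 (SE 0.55, q = 0.0362) and 1.53 for Slc6a19 (SE 0.41, q = 0.0339). Slc6a15 met the filter on low values through Cd38-/- alone (mean 5.81 TPM, against 0.94 TPM in Cd38+/+). Its q is therefore given as a description and not as support for a change. The call of Slc6a15 was lost without Cd38-/- replicate 1, 2, 3, 5 or 6 (1.93 to 2.07, q = 0.0609 to 0.0934), and that of Slc6a19 without any of these or Cd38+/+ replicate 1 (1.2 to 1.54, q = 0.0505 to 0.0843). The most abundant genes of the list were Slc1a4, a carrier of alanine, serine and cysteine, the taurine transporter Slc6a6 and Slc38a10, with differences of 0.13 (q = 0.361), -0.34 (q = 0.268) and 0.19 (q = 0.342).

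In Cd38+/- against Cd38+/+ none of 19 tested genes of this list was called, and in Cd38-/- against Cd38+/- none of 19. Slc1a4, like Slc6a9, was higher in every Cd38+/- library (286.85 to 317.91 TPM) than in any library of the other genotypes (176.22 to 281.53 TPM), with differences of 0.45 from Cd38+/+ (q = 0.225) and -0.32 in Cd38-/- from Cd38+/- (q = 0.248). In Cd38+/- against Cd38+/+, 2 of the 19 were higher and 1 lower without overlap, beside 15.5% and 6.94% of all genes. Between the mutants 1 of 19 was lower in Cd38-/- without overlap, beside 2.88%. Of 14 astrocyte markers, 7 were likewise higher in Cd38+/- than in Cd38+/+ without overlap.

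Genes that respond to a shortage of amino acids were read next, since Slc38a2, Slc7a5, Slc7a11 and Slc3a2 are known targets of that response. Of 21 tested response genes, 1 was called in Cd38-/- against Cd38+/+, where 8.28% of all tested genes were called. Ppp1r15a, which restores translation after stress, was at 45.72, 42.14 and 28.34 TPM in Cd38+/+ and at 51.42 to 64.04 TPM in Cd38-/- libraries without overlap, a difference of 0.61 (SE 0.17, q = 0.0401). The call was lost without Cd38-/- replicate 1, 2, 3, 5 or 6 (0.58 to 0.62, q = 0.0596 to 0.0951). The tRNA synthetase genes Sars, Wars and Mars1 were the most abundant of the list and differed by 0.05 (q = 0.463), 0.15 (q = 0.325) and 0.04 (q = 0.531). The median over the list was 0.13. None of the 21 was called in the other comparisons.

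Of 30 tested genes of amino acid metabolism, 1 was called in Cd38-/- against Cd38+/+, again beside 8.28% of all tested genes. Psat1, an enzyme of serine synthesis, was at 164.48, 144.63 and 144.09 TPM in Cd38+/+ and at 189.63 to 235.51 TPM in Cd38-/- libraries without overlap, a difference of 0.42 (SE 0.11, q = 0.0361). The call was lost without Cd38-/- replicate 1, 2, 5 or 6 (0.38 to 0.43, q = 0.0763 to 0.0899).

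Glul, which makes the glutamine that Slc38a3 carries, Phgdh, which opens serine synthesis, and Cbs, which makes cystathionine, were the most abundant and differed by -0.27 (q = 0.241), -0.13 (q = 0.325) and 0.20 (q = 0.267). The median over the list was 0.09. None of 31 was called in either other comparison.

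**Figure D4:**
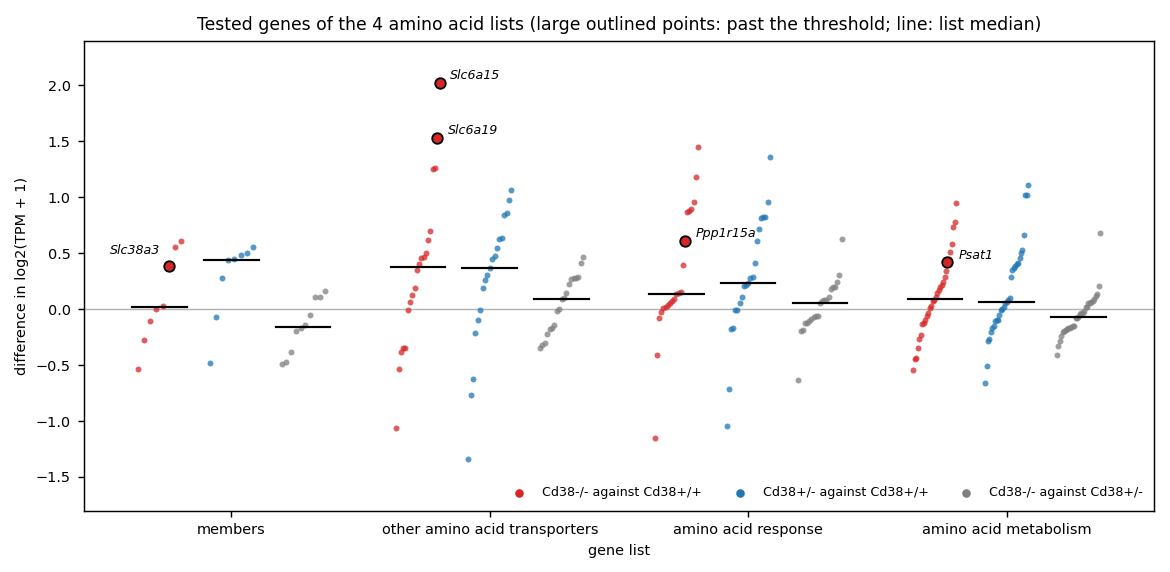
Difference in log2(TPM + 1) (vertical axis) of each tested gene of the transporters described here, the other amino acid transporters, the amino acid response and amino acid metabolism lists (horizontal axis), coloured by comparison, with the list median as a line. The 5 outlined genes, Slc38a3, Slc6a15, Slc6a19, Ppp1r15a and Psat1, were called in Cd38-/- against Cd38+/+ and no gene was called in the other comparisons. Slc6a15 met the filter on low values through Cd38-/- alone.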

How the data were processed

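Per the labels, RNA of midbrain astrocytes was converted to cDNA with a low-input kit and sequenced in pairs. The submitters' notes name Trim Galore 0.6.4, STAR 2.7.1a, RSEM 1.2.28, DESeq2 1.36.0 and mm10, and the annotation is not given in the sources used here. The authors deposited TPM with 2 decimals, 1 column per library. TPM keeps no read depth, so no counting interval was computed and a value of 0 sets no limit. Nothing in the labels says which libraries came from separate animals, so p-values measure the spread between libraries.

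Values were fitted as log2(TPM + 1) for genes whose mean exceeded 5 TPM in either genotype of a pair, with limma 3.58.1 (eBayes with trend, R 4.3.3) over the compared genotypes only. A call needed a Storey q under 0.05 over all genes tested and at least a 1.2-fold change. The pseudocount of 1 understates changes of low genes. The members and gene lists were chosen with earlier results of these data known. Named were the 10 members in every library, Cd38, every called gene of the 3 amino acid lists (up to 6 per list and comparison), the 3 most abundant genes of each list, and the 3 genes most correlated with Slc38a5 and Slc36a2. Positions came from GENCODE vM21 (GRCm38), which held 20503 of the 20614 genes measured. Marker lists covered astrocytes, endothelium, mural cells and fibroblasts, microglia, oligodendrocytes, neurons, choroid plexus, ependyma and erythroid cells. The procedure was tested on simulated data. Alternatives were other pseudocounts (0.1, 5), filters, adjustment, trend, library weights (statmod 1.5.0), scalings, removal of length and GC trends, a replicate block, 1 fit of all 12 libraries, and leaving out each library.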

Additional observations from a re-analysis of the deposited data

How the results depend on the processing

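Counts of called genes depended on the processing in Cd38-/- against Cd38+/+. Of the 8 relatives 1 was called, and 0 with Benjamini-Hochberg adjustment, without the trend, with library quality weights, with the replicate block, or with that block and length and GC trends removed. The count was 2 with quantile normalization (Slc38a3 and Slc7a5), with length and GC trends removed (Slc7a5 and Slc3a2) and in 1 fit of all 12 libraries (Slc38a3 and Slc7a5), and with median-ratio scaling Slc7a5 replaced Slc38a3. Leaving out 1 library gave 0 to 3, the highest without Cd38+/+ replicate 3. Of the other transporters 2 were called, Slc6a19 and Slc6a15, the latter as a description only. The count was 4 without a filter or with length and GC trends removed. It was 1 with at least 1 TPM in every library (Slc6a19) or with quantile normalization (neither Slc6a15 nor Slc6a19). It was 0 with Benjamini-Hochberg adjustment, with weights or with either block fit, and 0 to 8 without 1 library. Of the response and metabolism genes 2 were called, with 7 without a filter, 9 in 1 fit, 4 with length and GC trends removed and 1 with median-ratio scaling (in these last settings neither Ppp1r15a nor Psat1 was called), 0 with Benjamini-Hochberg adjustment, with weights or with either block fit, and 0 to 16 without 1 library. In Cd38+/- against Cd38+/+ the 0 calls became 1 relative, 0 transporters and 1 response or metabolism gene without a filter, and 1, 2 and 6 in 1 fit. In Cd38-/- against Cd38+/- the 0 calls became 5, 9 and 13 with library quality weights, a fit whose weights had not converged, as in Cd38+/- against Cd38+/+. The other alternatives left these counts at 0. The cause of these shifts was not tested. Over all genes, calls in Cd38-/- against Cd38+/+ went from 970 to 326 with Benjamini-Hochberg adjustment, 1 with weights and 2 with the replicate block, and from 74 (without Cd38-/- replicate 2) to 3119 (without Cd38+/+ replicate 3), and the share called higher from 77.5% to 59.9% (median-ratio scaling), 50.5% (quantile normalization) and 30.9% with length and GC trends removed. The replicate block also gave 4 calls in place of 0 in Cd38+/- against Cd38+/+ and 2 in place of 4 between the mutants. Whether replicate numbers paired the libraries was not settled, since the values were mixed. Deviations of same-numbered libraries correlated at -0.317 to 0.501 over 11373 genes. With Cd38+/+ beside Cd38+/-, 4 of 6 libraries were closest to their own number. With Cd38+/+ beside Cd38-/- this held for 0 of 6, and for the mutant pair for 3 of 6.

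Small differences changed sign. In Cd38-/- against Cd38+/+, Slc7a11 was -0.073 with weights, -0.083 with median-ratio scaling, -0.00073 with quantile normalization, -0.30 with length and GC trends removed, -0.31 with the block as well, and -0.14 to 0.21 without 1 library. Slc6a9 was -0.115 with median-ratio scaling, -0.19 with length and GC trends removed, -0.14 with the replicate block, -0.36 with both, and -0.074 to 0.12 without 1 library, and Slc7a10 was -0.22 to 0.038 without 1 library. In Cd38+/- against Cd38+/+, Slc3a2 was 0.015 with weights and -0.14 to 0.041 without 1 library, and Slc38a1 -0.0021 to 0.77. In Cd38-/- against Cd38+/-, Slc7a5 was 0.042 with length and GC trends removed and -0.17 to 0.033 without 1 library, Slc36a2 0.065 with the replicate block, 0.0098 with the block and length and GC trends removed and -0.34 to 0.015 without 1 library, Slc38a5 -0.025 with both and -0.064 to 0.26, Slc38a1 -0.029 to 0.36 and Slc38a2 -0.16 to 0.50. Slc38a2, Slc38a3 and Slc7a5 kept their direction against Cd38+/+ in the 22 alternatives run for Cd38-/- and the 19 for Cd38+/-.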
